A study of Mus musculus with 59 samples.

Results

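A set of 100 genes whose transcripts peaked transiently at days 6–12 after birth in the mouse prefrontal cortex is described here. The members were chosen by their levels in control mice. Of 18610 rows in the table, 14291 had an RPKM (reads scaled to transcript length in kilobases and to sequencing depth) of at least 1 in 8 or more control mice. For these rows log2(RPKM + 0.5) was averaged over the control mice of day 3, days 6–12, days 21–34 and days 55–319, and the score was the mean of days 6–12 minus the largest of the other means. The 100 rows with the highest score are the members, and 97 of them had a gene symbol.

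The study sequenced polyA RNA from the prefrontal cortex of 59 C57Bl/6 mice, 1 library per mouse. Transgenic mice were heterozygous for a human bacterial artificial chromosome that carries GLUD2, a human gene for glutamate dehydrogenase, and came from 2 lines, a and b, each with control littermates without the transgene. Control mice numbered 4 at day 3, 8 at days 6–12, 4 at days 21–34, 12 at days 55–319 and 1 at day 538. Transgenic mice numbered 3, 8, 5, 13 and 1 at the same ages. Both sexes were present, and no mouse was sampled between day 12 and day 21. The artificial chromosome was injected into fertilized eggs, so other human sequence came with the gene, and the labels name no cell type to which it is restricted.

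During this interval the mouse cortex forms many synapses, astrocytes mature, myelination has barely begun, and the pups feed on milk, whose fat makes ketone bodies an important brain fuel. Neurons also begin to build up the DNA methylation that marks their mature state.

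Control scores ran from 1.08 for Hcrtr1 to 0.39 for Map1lc3a with a median of 0.47, against a median of -0.28 over all 14291 rows. These control values chose the members and are given as a description, with no test. The last members were Fxyd2, CK137956, Fgd2, Gm12371 and Map1lc3a, with scores of 0.392, 0.392, 0.392, 0.391 and 0.389. Among the first rows outside were Adamts15, Cthrc1, Slc41a2 and Sptbn1, with scores of 0.389, 0.386, 0.385 and 0.381, so no gap separates the members from their neighbours. In controls the highest other window was day 3 for 45 members, days 21–34 for 48 and days 55–319 for 7. Mean levels at days 6–12 in control mice ran from 1.21 to 267 RPKM with a median of 7.52, and 36 members lay under 5 RPKM. The heatmap shows all members in every mouse of both genotypes to day 319.

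**Figure D1:**
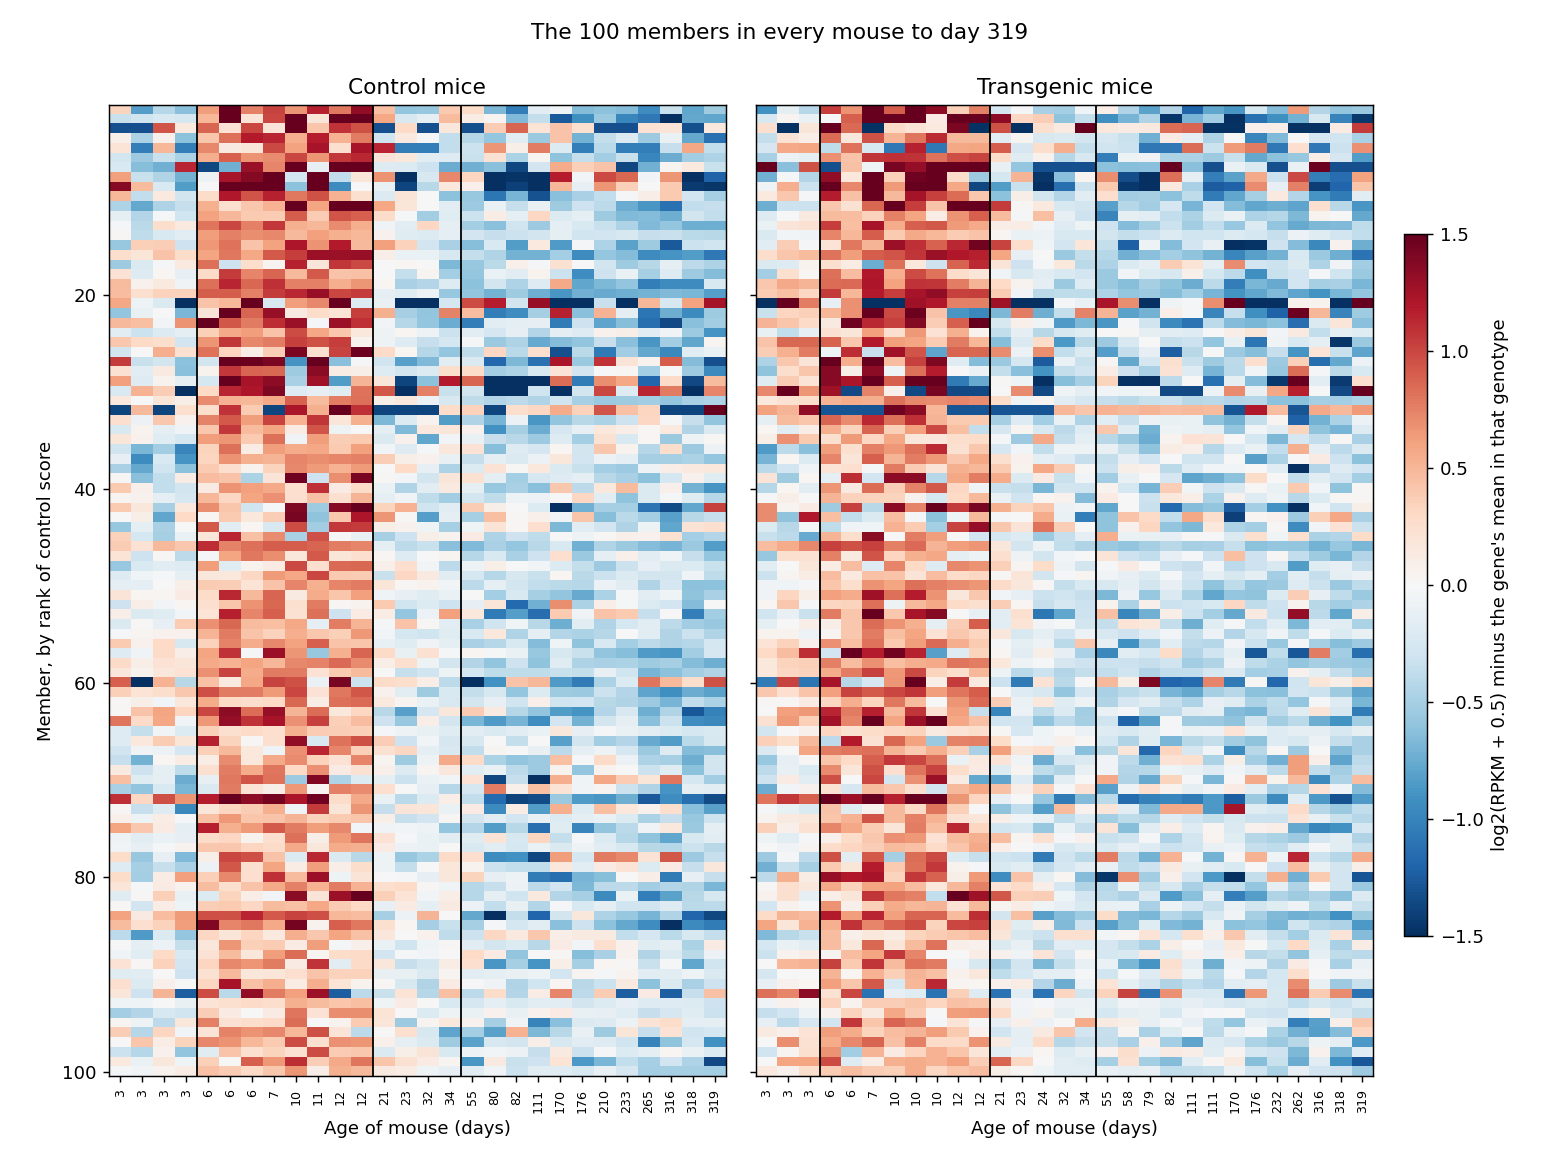
Level of each of the 100 members (rows, by rank of control score) in each mouse to day 319 (columns, by age in days), as log2(RPKM + 0.5) minus the gene's mean in that genotype; black lines separate day 3, days 6–12, days 21–34 and days 55–319. Red marks a level above the gene's mean and fills most of the days 6–12 block in the control mice that chose the rows and in the transgenic mice that did not.

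The labelled tissue was checked against marker genes. All 20 genes of a cortical layer list were above 0 in every library, with a mean log2(RPKM + 0.5) of 2.53 to 3.47 over the 59 mice. A list of hypothalamus, thalamus and septum, regions outside the prefrontal cortex, has 19 genes in the table, of which the 16 that pass the filter were averaged. It differed between libraries, from 0.92 to 3.33. It was above 2 in 4 of 8 control and 5 of 8 transgenic libraries of days 6–12. Transgenic libraries above 2 numbered 0 of 3 at day 3, 1 of 5 at days 21–34 and 6 of 13 at days 55–319. Control libraries above 2 numbered 2 of 4, 0 of 4 and 7 of 12 at the same ages. Of the 19 genes none had a median of 0, and 10 had a median of at least 1 RPKM. Ttr, the main transcript of choroid plexus, was 285 to 364 RPKM in the transgenic mice of day 3, 0.43 to 278 (median 0.959) at days 6–12, 0.241 to 2.83 (median 1.42) at days 21–34 and 0.238 to 135 (median 2.3) at days 55–319. A striatum list had transgenic medians of 3.16, 2.46, 4.24 and 4.59 (mean log2) at the same ages. The part of these markers in the differences between ages was not tested. Estimated depth was 8.85 to 12.7 M reads per library. Labels do not tie mice to litters, so p-values measure the spread between these mice.

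The transgenic mice were not used to choose the members, and the shape was tested there with limma on log2(RPKM + 0.5), with line and sex as covariates and Benjamini-Hochberg adjustment over all 14291 rows. All differences below are on that log2 scale with their standard error, and a difference was called at an adjusted p under 0.05. A member was called a transgenic peak where days 6–12 were above day 3, days 21–34 and days 55–319 at once. In the transgenic mice 44 of 100 members passed all 3 tests, against 1.53% of all rows. Against day 3 alone 46 members were higher and 17.1% of all rows were; against days 21–34 the counts were 71 members and 26.8%, and against days 55–319 87 members and 33.5%. The median difference over the members was 0.47, 0.66 and 0.80 for the 3 comparisons, and over all rows -0.04, 0.05 and 0.03. Of the 56 members not called, 26 failed only the comparison with the 3 mice of day 3, and 12 passed none. These counts were made for the members only and have no share of all rows beside them. The difference from day 3 was above 0 in 91 members and in 45.8% of all rows. Only 1 member, Gm20405, was called lower in the window than at day 3, against 23.4% of all rows. Gm20405 had 11 reads summed over the 8 transgenic mice of the window. All 3 differences were above 0 in 89 members and in 14.1% of all rows. The plot of the scores shows most members in the upper right, with a few far below 0 in the transgenic mice.

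**Figure D2:**
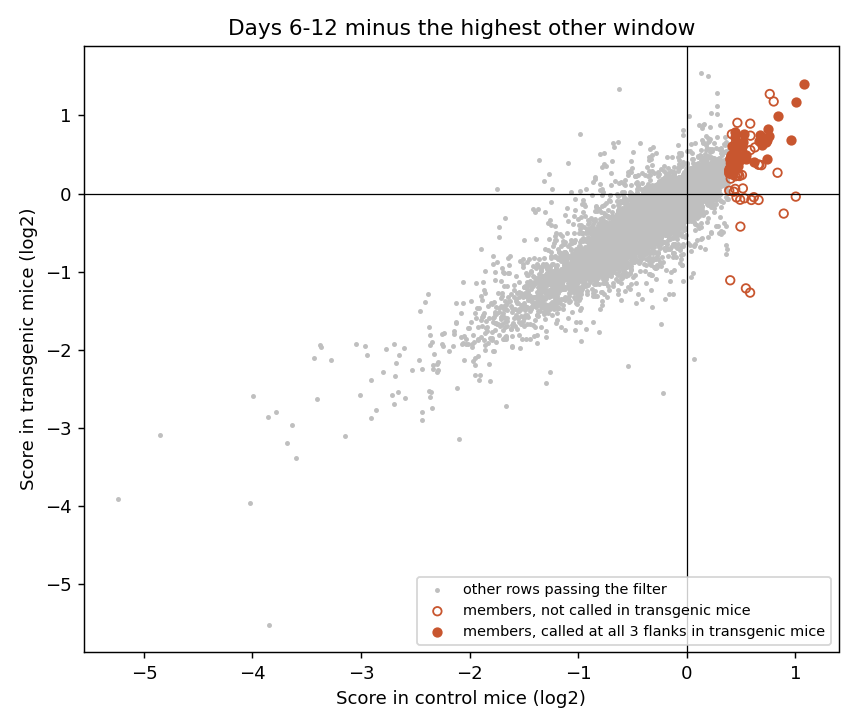
Score (log2, days 6–12 minus the highest other window) in control mice against the same score in transgenic mice for each row passing the filter; filled circles are the 44 members called in the transgenic mice and open circles the 56 that were not. Members lie beyond the threshold on the x axis by construction, and 88 of 100 are above 0 on the y axis, against 14.1% of all rows.

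Single mice mattered for the count. Without transgenic mouse 30, 1 of the 3 mice of day 3, 22 members were called. The other 28 omissions of 1 mouse gave between 33 and 46. The share of all rows called under each omission is not given here.

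All 44 called members were protein-coding. Protein-coding genes made up 88 of the 100 members and 88.2% of all rows passing the filter, so their share was alike. The share called was not counted separately for all protein-coding rows and all other rows. Of the 12 other members 0 was called. Several of those rest on few reads: Mir665, a microRNA gene, had 14 reads summed over the 8 control mice of days 6–12 and 14 over the 8 transgenic mice. Scarna17, a small Cajal body RNA, had 12 and 5 reads. Rpph1, the RNA of ribonuclease P, had 64 and 61 reads, with 0 in at least 1 mouse of each genotype. In the transgenic mice Rpph1 passed against days 21–34 at 1.897 ± 0.57 (adjusted p = 0.0083) and against days 55–319 at 1.27 ± 0.44 (adjusted p = 0.016), but not against day 3, at 0.20 ± 0.68 (adjusted p = 0.84). Mir665 and Scarna17 passed none of the 3.

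In the 10 members described next, every transgenic mouse of days 6–12 was above every other transgenic mouse to day 319, which held for 0.273% of all rows. These are Fxyd7, Emp2, Cntn1, Slc16a1, Dnmt3a, Oxct1, Hsbp1, Arhgdig, Snap91 and Map1lc3a.

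Promoters are shown for the 5 of these that have a single start in the RefSeq table of the GRCm38.p6 build, because they are the members whose transcripts separate the window most completely. Each window has 300 bases, most of them before the annotated start, 5′ to 3′ on the gene's strand, and capitals mark GGGCGG or its reverse complement CCGCCC, the GC box. The reads were aligned to another build, mm9, so these coordinates are those of the reference only.
Emp2, chr16:10313919-10314218, minus strand: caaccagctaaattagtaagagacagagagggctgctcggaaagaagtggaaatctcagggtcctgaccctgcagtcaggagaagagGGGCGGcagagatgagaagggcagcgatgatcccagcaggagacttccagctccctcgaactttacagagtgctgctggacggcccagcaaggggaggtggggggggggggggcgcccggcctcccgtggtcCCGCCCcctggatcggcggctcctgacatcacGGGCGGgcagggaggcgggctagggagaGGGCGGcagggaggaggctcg
Slc16a1, chr3:104638414-104638713, plus strand: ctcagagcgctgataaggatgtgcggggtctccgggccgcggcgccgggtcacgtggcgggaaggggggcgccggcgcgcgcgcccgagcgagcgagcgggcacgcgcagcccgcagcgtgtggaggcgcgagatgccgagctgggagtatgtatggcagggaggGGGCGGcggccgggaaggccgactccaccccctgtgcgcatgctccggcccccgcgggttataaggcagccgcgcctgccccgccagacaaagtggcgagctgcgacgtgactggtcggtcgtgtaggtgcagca
Oxct1, chr15:4026178-4026477, plus strand: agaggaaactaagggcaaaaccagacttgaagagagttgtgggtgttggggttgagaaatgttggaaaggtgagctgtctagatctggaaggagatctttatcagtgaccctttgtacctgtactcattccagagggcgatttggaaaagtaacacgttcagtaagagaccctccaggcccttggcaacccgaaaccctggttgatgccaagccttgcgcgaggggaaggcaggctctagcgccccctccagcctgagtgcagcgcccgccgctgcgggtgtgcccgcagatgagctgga
Hsbp1, chr8:119344288-119344587, plus strand: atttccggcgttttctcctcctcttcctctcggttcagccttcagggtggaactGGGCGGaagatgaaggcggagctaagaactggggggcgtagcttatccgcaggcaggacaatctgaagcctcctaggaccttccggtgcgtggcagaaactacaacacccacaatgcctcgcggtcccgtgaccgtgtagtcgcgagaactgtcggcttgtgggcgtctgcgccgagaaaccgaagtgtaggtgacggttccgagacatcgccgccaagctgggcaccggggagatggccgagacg
Snap91, chr9:86880659-86880958, minus strand: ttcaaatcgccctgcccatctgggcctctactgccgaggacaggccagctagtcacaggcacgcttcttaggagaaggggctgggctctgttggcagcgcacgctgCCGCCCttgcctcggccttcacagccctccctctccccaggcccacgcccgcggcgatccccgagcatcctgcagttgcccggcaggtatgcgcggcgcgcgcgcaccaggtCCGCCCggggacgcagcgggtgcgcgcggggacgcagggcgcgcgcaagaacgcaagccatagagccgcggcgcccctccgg
The Emp2 window holds 4 GC boxes, that of Snap91 2, those of Slc16a1 and Hsbp1 1 each, and the Oxct1 window has none of these letters. The table had entries for 62 members with 80 starts. On either strand GGGCGG was in 55.0% of the members' windows and in 62.3% of those of all rows passing the filter. TATAAA was in 7.5% against 6.91%, CACGTG (its own reverse complement) in 12.5% against 9.71%, TGACGTCA (likewise) in 1.25% against 2.92% and CCAAT in 31.2% against 37.1%. A match is a description of letters and not a binding site.

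Dnmt3a, the enzyme that adds new methyl groups to DNA, stood at 17.7, 15.1, 16.3 and 16.4 RPKM in the control mice of day 3. It reached 21.8 to 32.3 (median 26.4) at days 6–12, then 11.4, 11.2, 11.9 and 8.45 at days 21–34 and 6.74 to 8.66 (median 7.54) at days 55–319. Transgenic mice had 16.04, 16.9 and 15.3 RPKM at day 3, 17.5 to 31.5 (median 25.7) at days 6–12, 16.1, 11.9, 9.16, 9.31 and 9.32 at days 21–34 and 6.32 to 8.75 (median 7.58) at days 55–319. The window stood above all other ages in both genotypes without overlap. In the transgenic mice it was above day 3 by 0.69 ± 0.14 (adjusted p = 6.4e-04), above days 21–34 by 1.2 ± 0.12 (adjusted p = 9.9e-08) and above days 55–319 by 1.72 ± 0.10 (adjusted p = 1.8e-13). Transgenic mouse 34, aged 6 days, was the lowest of the window at 17.5 RPKM, apart from the other 7 at 25.4 to 31.5.

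Oxct1 encodes the mitochondrial enzyme that activates ketone bodies for oxidation, and Slc16a1 the monocarboxylate transporter MCT1, which carries lactate, pyruvate and ketone bodies across membranes. Oxct1 stood at 118, 123 and 127 RPKM in the transgenic mice of day 3, 150.3 to 187 (median 172) at days 6–12, 128, 101, 109, 94.3 and 88.2 at days 21–34 and 68.4 to 84.1 (median 78.5) at days 55–319. In controls it was 119, 107, 120 and 113 at day 3, 148 to 196 (median 165) in the window, 113, 118, 99.7 and 89.8 at days 21–34 and 70.5 to 85.95 (median 76.04) later. The window thus lay apart on both sides, and its distance in the transgenic mice was 0.44 ± 0.09 (adjusted p = 4.1e-04) from day 3, 0.70 ± 0.07 (adjusted p = 1.5e-07) from days 21–34 and 1.11 ± 0.06 (adjusted p = 4.9e-14) from days 55–319. Slc16a1 stood at 11.6, 12.9 and 13.5 RPKM in transgenic mice of day 3, 15 to 24.2 (median 19.8) in the window, 14.7, 8.77, 9.53, 6.35 and 7.35 at days 21–34 and 4.18 to 8.09 (median 5.69) at days 55–319. Control mice had 11.8, 11.1, 13.2 and 11.8, 14.8 to 24.7 (median 19.7), 10.5, 9.06, 9.08 and 8.15 and 4.36 to 7.47 (median 5.76) at the same ages. The closest approach was the transgenic mouse of day 21 at 14.7 RPKM, just under the lowest mouse of the window at 15. The differences were 0.60 ± 0.18 (adjusted p = 0.0095) from day 3, 1.11 ± 0.15 (adjusted p = 3.1e-06) from days 21–34 and 1.67 ± 0.12 (adjusted p = 1.1e-11) from days 55–319.

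Fxyd7, Cntn1 and Emp2 encode membrane proteins. Fxyd7, a regulator of the brain's Na,K-ATPase, stood at 47.02, 62.4 and 59.8 RPKM in transgenic mice of day 3, 88.9 to 142 (median 132) in the window, 80.2, 58.5, 69.05, 49.04 and 56.1 at days 21–34 and 31.9 to 70.9 (median 47.6) at days 55–319. Its window level was above day 3 by 1.11 ± 0.20 (adjusted p = 1.3e-04), the largest such difference among the 10. Cntn1, a cell adhesion molecule of axons and glial contacts, stood at 39.99, 45.2 and 44.4 RPKM at day 3, 60.9 to 87.8 (median 65.95) in the window, 47.4, 43.4, 43.6, 39.7 and 39.8 at days 21–34 and 35.8 to 43.6 (median 37.9) later. The window did not overlap either flank, and the differences were 0.66 ± 0.09 (adjusted p = 1.1e-05), 0.67 ± 0.07 (adjusted p = 2.4e-07) and 0.82 ± 0.06 (adjusted p = 1.1e-11). Emp2, a tetraspan membrane protein, stood at 7.78, 9.68 and 9.9 RPKM at day 3, 11.7 to 20.5 (median 14.7) in the window, 9.003, 9.08, 8.13, 7.27 and 7.92 at days 21–34 and 4.77 to 7.19 (median 5.69) later. It was above day 3 by 0.71 ± 0.13 (adjusted p = 2.5e-04).

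The remaining 4 were also abundant. Snap91, the clathrin assembly protein AP180 of synaptic vesicle recycling, was 68.5 ± 4.86 RPKM (SD, n = 8) in transgenic mice of the window and 51.7 ± 1.67 (n = 3) at day 3, a difference of 0.38 ± 0.08 (adjusted p = 4.4e-04) by limma. Map1lc3a, an LC3 protein of autophagosomes, rose above day 3 by 0.24 ± 0.08 (adjusted p = 0.025). Hsbp1, which binds heat shock factor 1, rose above day 3 by 0.36 ± 0.10 (adjusted p = 0.0076), and Arhgdig by 0.48 ± 0.11 (adjusted p = 0.0014). For Arhgdig the fall to days 55–319 was larger, at 1.39.

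**Figure D3:**
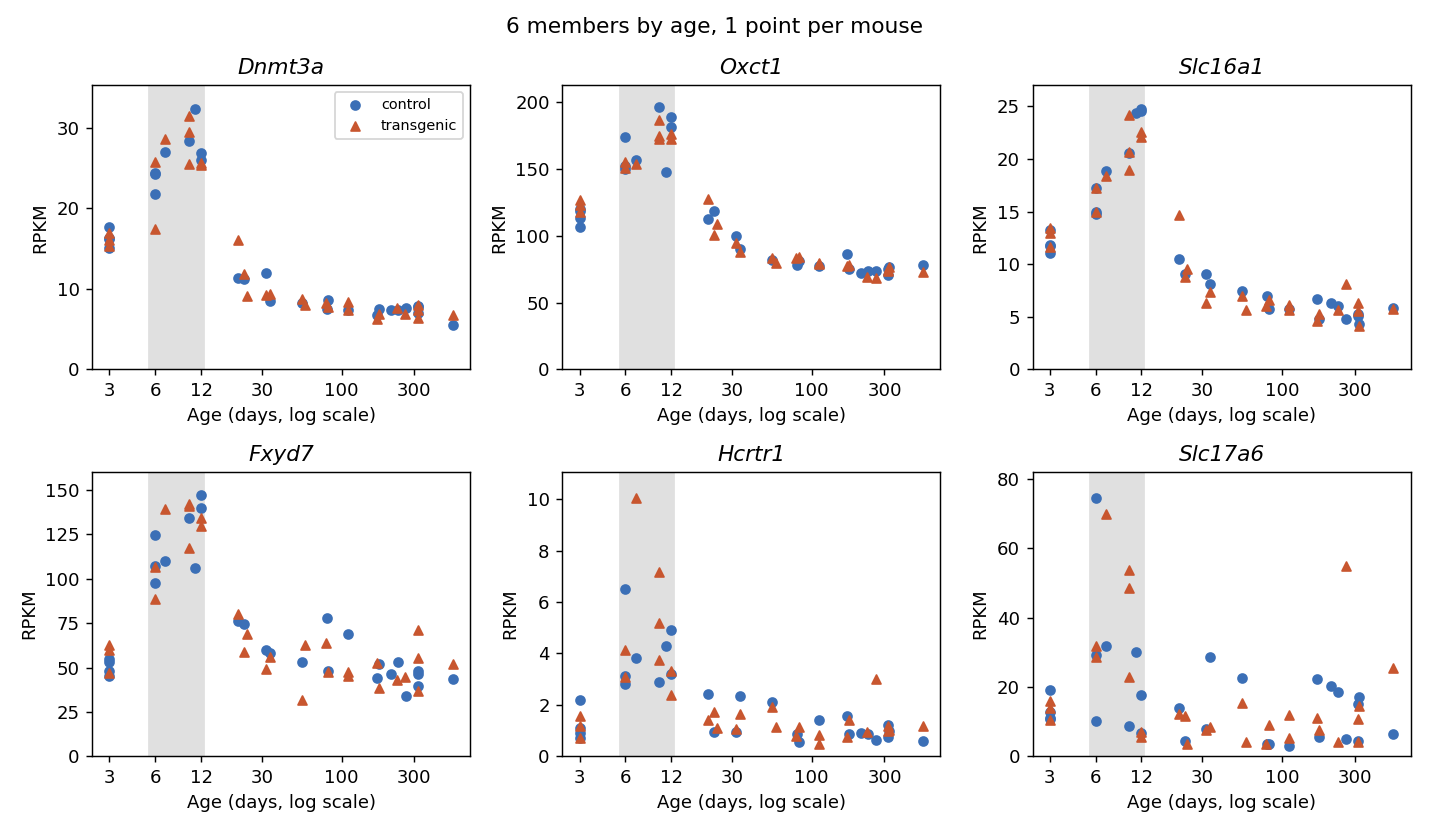
RPKM against age (days, log scale) for 6 members, 1 point per mouse, circles for control and triangles for transgenic mice, with days 6–12 shaded. Dnmt3a, Oxct1, Slc16a1 and Fxyd7 lie in every mouse of the window above all other mice of the same genotype to day 319, whereas Slc17a6 spans 5.51 to 74.7 RPKM within it.

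The member with the highest control score was Hcrtr1, a receptor for the hypothalamic peptide orexin. Its level was low: 2.2, 0.715, 1.1 and 0.888 RPKM in the control mice of day 3, 2.82 to 6.49 (median 3.53) in the window, 2.44, 0.936, 0.949 and 2.33 at days 21–34 and 0.545 to 2.11 (median 0.889) at days 55–319. Transgenic mice had 0.704, 1.55 and 1.18, 2.4 to 10.1 (median 3.93), 1.39, 1.72, 1.11, 1.08 and 1.65 and 0.483 to 3.004 (median 1.03). One adult transgenic mouse at 3.004 RPKM overlapped the window, and the differences were 1.599 ± 0.32 (adjusted p = 4.8e-04), 1.41 ± 0.27 (adjusted p = 1.8e-04) and 1.62 ± 0.21 (adjusted p = 3.8e-07). Npnt, nephronectin, a matrix ligand of integrins, followed in rank. It ranged within the window from 6.68 to 39.1 RPKM in transgenic mice, against 5.63, 6.96 and 6.23 at day 3 and 17.8, 8.43, 8.84, 4.26 and 5.16 at days 21–34. It was above day 3 by 1.41 ± 0.43 (adjusted p = 0.011) although its groups overlapped. Cemip, which degrades hyaluronan, was above day 3 by 1.398 ± 0.29 (adjusted p = 6.4e-04), and Pgm2l1, which makes glucose 1,6-bisphosphate, by 0.52 ± 0.19 (adjusted p = 0.033).

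Among the other members ranked in the top 20, D630023F18Rik, Selenov, Tmem210 and L3mbtl1 were also called in the transgenic mice, with smallest differences of 0.68, 0.82, 0.71 and 0.75. Without the transgenic libraries above 2 on the list of neighbouring regions, the window kept 3 mice, all of days 10–12. D630023F18Rik then kept its call and the others lost it. Their smallest differences were 0.47 for Selenov (largest adjusted p of the 3 limma tests = 0.12), 0.85 for Tmem210 (0.16) and 0.39 for L3mbtl1 (0.053). Car8, a carbonic anhydrase-related protein, missed only the comparison with day 3, at 0.34 ± 0.15 (adjusted p = 0.072). Kcng1, a modifier subunit of potassium channels, passed none of the 3, with 0.38 ± 0.29 (adjusted p = 0.31) against day 3, but was called without those libraries, with a smallest difference of 1.08 (largest adjusted p = 0.0021). Dgkk, a diacylglycerol kinase, also missed only day 3, at 1.296 ± 0.69 (adjusted p = 0.14). Igsf1, an immunoglobulin family membrane protein, missed day 3 at 1.32 ± 0.60 (adjusted p = 0.079) and days 21–34 at 1.196 ± 0.50 (adjusted p = 0.053). Igsf1 was called with the marker level as a covariate, with a smallest difference of 0.70 (largest adjusted p = 0.034), and had 0.25 (0.72) without those libraries.

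Slc17a6, Dgkk and some others varied with the marker list of neighbouring regions. Slc17a6 encodes VGLUT2, the vesicular glutamate transporter of thalamic and other subcortical neurons. In controls of the window it was 29.4 to 74.7 RPKM in the 4 libraries above 2 on the list and 6.63 to 17.5 in the other 4, a split without overlap. In transgenic mice it was 28.8 to 70.0 in the 5 libraries above 2 and 5.51 to 23.0 in the other 3. Dgkk was 9.5 to 14.1 and 0.747 to 1.9 in the same control libraries. Dnmt3a was 21.8 to 32.3 in the 4 control libraries above 2 and 24.3 to 28.3 in the others, so these overlapped. Oxct1 was 148 to 157 in the control libraries above 2 and 174 to 196 in the others, lower where the list was high. The control mice above 2 were aged 6, 6, 7 and 11 days and the others 6, 10, 12 and 12. List level and age thus differed together in these splits, but not in every mouse. Control mouse 5, aged 6 days and under 2, had 10.1 RPKM of Slc17a6 and 1.88 of Dgkk. Control mouse 10, aged 11 days and above 2, had 30.2 and 14.1. Transgenic mice 36, 37 and 38 were all aged 10 days, and only mouse 36 was under 2. They had 23.0, 53.8 and 48.5 RPKM of Slc17a6 and 3.55, 15.3 and 20.1 of Dgkk. The separate parts of list level and age were not tested. A part of these markers in the levels of Slc17a6 and Dgkk was not tested, and in bulk tissue fewer cells of a type and less RNA per cell cannot be told apart. With the list as a covariate, all 44 members stayed called and 6 more passed, 50 in all, against 1.62% of rows. With the 12 transgenic libraries above 2 left out, 17 remained, 3 of them in the window. These 3 mice were aged 10, 12 and 12 days, and all mice of days 6–7 were left out. Marker level and age within the window therefore cannot be told apart in this fit. It called 35 members, against 1.15% of rows. Of these 35, 28 were among the 44, so 16 members lost the call and 7 gained it. The call was lost by Selenov, Tmem210, L3mbtl1, Fam184b, Slc6a7, Pnma3, Alk, Adgre1, Adamts16, Apba1, Ednrb, Adcy8, Tril, Ccdc85a, Eps8 and Ptpru. It was gained by Kcng1, Prss35, Tmprss7, Ramp3, Actr3b, Itgb3 and Fkbp1b. Dnmt3a, Oxct1, Slc16a1, Fxyd7, Cntn1, Emp2 and Hcrtr1 were called under both, whereas Slc17a6 and Dgkk, not called before, had smallest differences of -0.43 and -0.08 without those libraries.

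**Figure D4:**
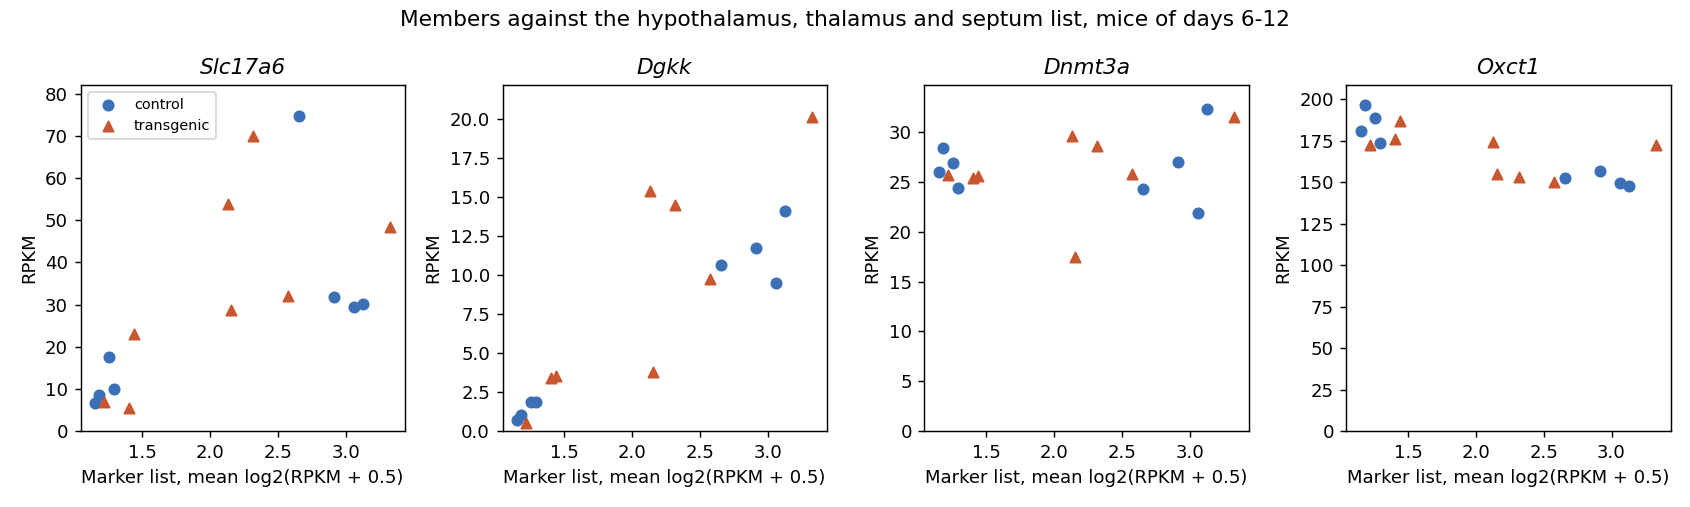
RPKM of 4 members against the mean log2(RPKM + 0.5) of 16 hypothalamus, thalamus and septum genes in the 16 mice of days 6–12, circles for control and triangles for transgenic mice. Slc17a6 and Dgkk are highest in libraries above 2 on the list, and Dnmt3a and Oxct1 are high in libraries on both sides of it.

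Within the window, timing was tested in the 3 transgenic mice of days 6–7 against the 5 of days 10–12. Of the 100 members 2 were higher at days 10–12 and 3 lower, where 11.6% of all rows were higher and 15.1% lower. Ramp3, a subunit of peptide hormone receptors, rose by 1.25 ± 0.37 (adjusted p = 0.014) and Rpph1 by 1.96 ± 0.64 (adjusted p = 0.025). Cntn1 changed by -0.26 ± 0.08 (adjusted p = 0.017), Cdkl2, a protein kinase, by -0.34 ± 0.10 (adjusted p = 0.017) and Amn, amnionless, by -0.73 ± 0.23 (adjusted p = 0.02). Among the largest differences that did not pass were Scarna17 at 1.36, Gm25982 at 1.004, Npnt at 0.77, Slc17a6 at -1.15, H2-Q2 at -1.005 and Prph at -0.87. All 3 mice of days 6–7 were above 2 on the list of neighbouring regions, against 2 of 5 of days 10–12, and its part in these differences was not tested. Leaving out 1 mouse moved the higher count between 0 (without mouse 33) and 8 (without mouse 38), and the lower count between 0 (without mouse 35) and 5 (without mouse 37).

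**Figure D5:**
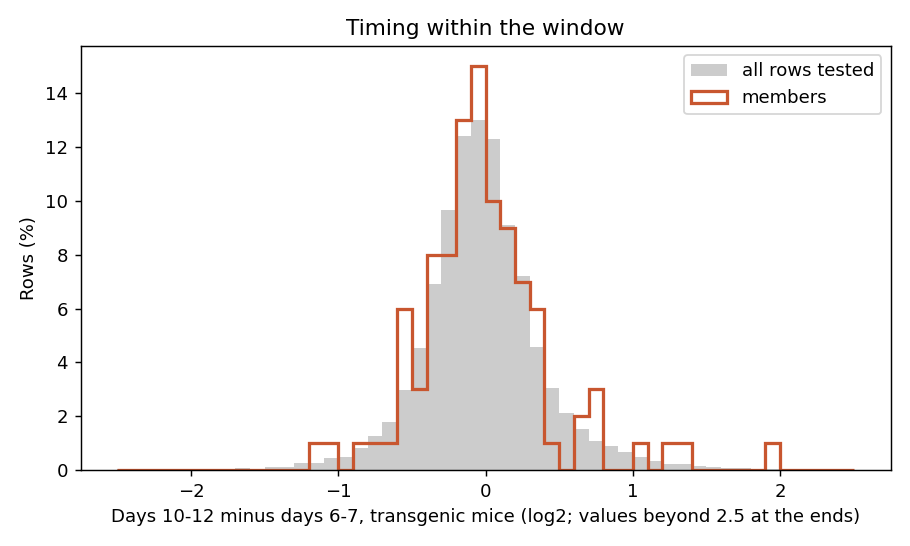
Difference between days 10–12 and days 6–7 in transgenic mice (log2) for the 100 members (line) and all 14291 rows tested (grey), as percent of rows. Both centre near 0, with medians of -0.03 and -0.04.

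Between days 21–34 and days 55–319, 9 members fell in the transgenic mice, against 1.69% of all rows, and the median over members was -0.17. They were Emp2, Slc16a1, Car8, Dnmt3a, Oxct1, Cdkl2, Hsbp1, Rims4, an active zone protein, and Ctsk, cathepsin K. Oxct1 fell by 0.41 ± 0.07 on the log2 scale (adjusted p = 0.002) and Dnmt3a by 0.52 ± 0.11 (adjusted p = 0.011). The count was 1 without mouse 41, 3 without mouse 42 and 4 without mouse 43, all of days 21–34.

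In the single mice of day 538, Dnmt3a was 5.5 RPKM in the control and 6.75 in the transgenic mouse, Oxct1 77.9 and 72.99, and Slc16a1 5.82 and 5.76. These values have no replicate and lie near those of days 55–319.

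The members not called with the largest adjusted p were Rpph1, Mir665, Gm25982, Gm20501, Gm12371, Itgb3, Rxfp1, Gm24166, Cwh43 and Wnt4. Itgb3, the integrin beta 3 subunit, differed from day 3 by 0.04 ± 0.25 (adjusted p = 0.91), and was called without the libraries above 2 on the list, with a smallest difference of 0.40 (largest adjusted p = 0.034). The difference from day 3 was for Rxfp1, a relaxin receptor, -0.09 ± 0.44 (adjusted p = 0.89) and for Gm20501 -0.01 ± 0.25 (adjusted p = 0.98). Gm24166 differed from day 3 by -1.16 ± 0.65 (adjusted p = 0.15), with 11 reads over the 8 transgenic mice of the window. Cwh43 differed from days 21–34 by -0.07 ± 0.26 (adjusted p = 0.86), and Gm12371 differed from day 3 by 0.02 ± 0.28 (adjusted p = 0.95).

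Of 33 gene lists for cell types and pathways of the developing cortex, 507 genes were tested and 2 are members. Wnt4, a secreted Wnt ligand, stood at 2.19, 3.87 and 4.22 RPKM in transgenic mice of day 3, 3.2 to 6.23 (median 5.14) in the window and 5.62, 4.28, 5.21, 3.91 and 4.75 at days 21–34. Its groups overlapped, and it differed from days 21–34 by 0.03 ± 0.18 (adjusted p = 0.91). Pdgfb, the growth factor by which endothelium recruits pericytes, was 5.29, 6.34 and 6.76 RPKM at day 3, 9.15 to 12.1 (median 11.2) in the window and 9.83, 7.26, 6.78, 10.3 and 10.3 at days 21–34. It rose above day 3 by 0.77 ± 0.18 (adjusted p = 0.0015) but differed from days 21–34 by 0.28 ± 0.15 (adjusted p = 0.13). Of all list genes, 11 were called a transgenic peak, 2.17%, against 1.53% of all rows, and none of the 11 is a member. The premyelinating oligodendrocyte list held 4 of 21: Gpr17, Itpr2, Nkx2-2 and Tmem163. Gpr17, a receptor of cells about to myelinate, was 36.3 ± 16.7 RPKM (SD, n = 8) in transgenic mice of the window and 20.99 ± 4.36 (n = 5) at days 21–34. In control mice it was 25.8 ± 7.79 (n = 8) and 21.9 ± 5.51 (n = 4). Control scores of these 4 genes were 0.21, 0.03, 0.21 and 0.30, in the order named. Of the 21 genes, 2 were called lower in the window than at day 3 and 2 lower than at days 21–34. Neither the 16 myelinating oligodendrocyte genes nor the 14 cell cycle genes tested held a call: 16 of the 16 were lower at days 6–12 than at days 21–34 (2716 of all 14291 rows, or 19%), and 13 of the 14 were lower than at day 3 (23.4% of all rows).

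Transgenic and control levels of the members are set beside each other without a test, because control values chose the members. Transgenic means were higher in 77 of 100 members at day 3 (48.1% of all rows), 51 at days 6–12 (49.4%), 44 at days 21–34 (35.8%) and 64 at days 55–319 (51.2%). The median of transgenic minus control over the members was 0.08, 0.00, -0.04 and 0.03 on the log2 scale. The rule picked rows that are low in the control flanks. By the score of the transgenic mice alone, 32 members were among the top 100 rows.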

How the data were processed

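PolyA RNA of the prefrontal cortex was sequenced in 59 mice, 1 library each. Reads were aligned with STAR to mm9 per the submitters' processing notes; for the STAR version, counting tool and annotation, not given in the sources used here. The authors deposited RPKM per gene, and all 59 columns were used. Low values rose in steps of 1 read (1190 of 1190 low rows within 0.05 reads), which gave the depth. These steps describe reads behind sparse members, and intervals were not drawn from them. Symbols came from GENCODE vM21 and the names table for 17734 rows.

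The members and gene lists were chosen with earlier results of these data known. Members came from the 28 control mice to day 319. Tests ran in R 4.3.3 with limma 3.58.1 and a variance trend, on the 29 transgenic mice to day 319, two-sided, at an adjusted p of 0.05. In simulated data on 14291 rows the peak test recovered 8% of genes changed 1.2-fold, 60% at 1.5-fold, 80% at 2-fold and 100% at 3-fold. The simulation drew independent noise around a flat mean per row and changed 50 rows per fold. In the data far more rows differed between ages, so these rates need not hold there. Members are named by rule: the top 20 by control score, members of lists, the 5 largest and 5 smallest differences within the window, the 10 uncalled members with the largest adjusted p, and ranks 96 to 105, of which 1 row is not reported here. Others named were chosen after their values were seen, among them the members without overlap. Alternatives varied pseudocount, filter, scaling, covariates, weights, mice and, chosen after the data were seen, the neighbouring-region list and row type. Python 3.11.15 with pandas 2.3.3, numpy 2.4.6 and matplotlib 3.10.9 made tables and figures.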

Additional observations from a re-analysis of the deposited data

Results flagged for a closer look

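Of 195 groups of 4 to 10 mice examined for the named members, 6 held a mouse far from the others, and chance alone flags about 1 in 20. In control mice of days 21–34, mouse 16 had 5.57 RPKM of Kcng1 where the others had 9.16 to 9.4. In transgenic mice of days 6–12, mouse 34 had 17.5 RPKM of Dnmt3a (others 25.4 to 31.5) and 0.939 of Fgd2 (others 1.75 to 2.8). Scarna17 stood at 0 in control mouse 8 of days 6–12, where the others had 1.06 to 3.83, and at 1.07 in control mouse 16 of days 21–34, where the others had 0. These are differences of a few reads: at most 3 reads per mouse in the first group and 1 in the second. Gm20501 was 2.57 in control mouse 12 of days 6–12 (others 4.18 to 5.72).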

How the results depend on the processing

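Over the alternatives other than leaving out 1 mouse, members with a transgenic peak numbered 35 to 59 against 44. Leaving out 1 transgenic mouse gave 22 to 46 for the peak, 23 to 49 against day 3, 62 to 73 against days 21–34, 86 to 88 against days 55–319, 0 to 8 and 0 to 5 for days 10–12 higher and lower than days 6–7, and 1 to 13 for the late fall. Without mouse 30, 23 members were higher than at day 3. Days 10–12 were higher in 9 members with array weights and in 1 with a mean of at least 2 RPKM, with protein-coding rows only or with a pseudocount of 0.1. They were higher in 4 without mouse 41. They were lower in 6 members with array weights and in 1 with mice of day 3 to day 34 only. The late fall numbered 19 with array weights. The rule returned 32 of the 100 members from transgenic mice, 48 without the control libraries above 2 on the neighbouring-region list, 70 with medians, 83 to 97 under its other settings, and 79 to 100 with 1 control mouse left out. The counts of calls stand here without the share of all rows called under the same setting. The cause of these shifts was not tested.

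The smallest difference in transgenic mice changed sign for 14 named members, none of them called. Among the named members that were called, the call was lost 36 times over all omissions of 1 mouse and 9 times over the other settings, always with the same sign. Without the libraries above 2 it was -0.0759 for Dgkk, -0.43 for Slc17a6, -0.18 for H2-Q2, -0.50 for Prph, -0.30 for Amn and 0.54 for Cwh43. With the list as covariate it was -0.11 for Gm25982, 0.0456 for Gm20501, 0.11 for Rxfp1 and 0.17 for Cwh43. With array weights it was -0.31 for Gm25982, 0.0023 for Gm20501 and -0.00749 for Gm12371. For Gm25982 it was -0.0821 without covariates and -0.0355 with a pseudocount of 1. Median ratio scaling and quantile normalization gave -0.0184 and -0.0217 for Wnt4, and 0.0362 and 0.0267 for Gm20501. With 1 mouse left out it ran from -0.22 to 0.0523 for Cwh43, -0.20 to 0.13 for Gm12371, -0.13 to 0.0708 for Gm20501, -1.19 to 0.39 for Gm25982, -0.0802 to 0.19 for Itgb3, -0.51 to 0.29 for Mir665, -0.37 to 0.60 for Rpph1, -0.36 to 0.23 for Rxfp1 and -0.0541 to 0.11 for Wnt4. No paired analysis was possible because the labels do not tie mice to litters, although controls were littermates. Depth limits the members that rest on few reads, and 3 transgenic mice of day 3 limit the first flank.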

Other observations

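Solute carriers were frequent by name among the members: 10 of 100 carried an Slc symbol, against 1.73% of all rows passing the filter (247 rows). This was noticed after the values were seen and is a count without a test. They are Slc16a1 and Slc16a9 (monocarboxylate carrier family), Slc17a6 and Slc17a8 (vesicular glutamate transporters VGLUT2 and VGLUT3), Slc6a11 (a GABA transporter), Slc6a7 (a proline transporter), Slc7a3 (cationic amino acids), Slc14a1 (urea), Slc22a3 (organic cations) and Slc41a3. In the transgenic mice Slc16a1, Slc14a1 and Slc6a7 were called at all 3 flanks. Without the libraries above 2 on the neighbouring-region list Slc16a1 and Slc14a1 were still called, and Slc6a7 was not, with a smallest difference of 0.49 (largest adjusted p by limma of the 3 tests = 0.062). The other carriers were called in neither fit. Without those libraries their smallest differences were -0.43 for Slc17a6, -0.06 for Slc7a3, -0.03 for Slc41a3 and 0.07 for Slc16a9. They were 0.34 for Slc6a11, 0.35 for Slc17a8 and 0.36 for Slc22a3. The part of the marker list in this count was not tested.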
